A study of Rattus norvegicus with 27 samples.

Results

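The genes that mark inhibitory interneurons were followed across single-rat libraries of the medial prefrontal cortex (mPFC). The set was chosen by symbol and holds 9 genes (Gad1, Gad2, Slc32a1, Pvalb, Calb2, Lhx6, Dlx1, Erbb4 and Reln) out of 36865 rows of the gene count table. All 9 were found in the table under their NCBI gene IDs, and all 9 had a mean count of at least 10, the minimum used for the tests. They were named by symbol, with earlier results of these data known.

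RNA was sequenced from 27 adult male Wistar rats obtained from Charles River, with 1 library per rat, so that the spread between libraries holds both the rat and its handling. The rats were in a resting state and formed 1 group without an untreated or control group. They had been chosen by their composite anxiety scores after repeated elevated plus-maze (EPM), light-dark (LD) and open field (OF) tests, and the study asked which genes follow those scores. Per-rat scores were not used here. The sample labels name learned helplessness as the treatment and also list acoustic startle and fear conditioning. They place the tissue in a slice 0.5 mm thick, from 2.0 to 1.5 mm before Bregma, whereas the study's methods place it further forward, so the exact level of the section is uncertain. The dissection took infralimbic, prelimbic and anterior cingulate cortex of both sides as a block of mixed cells.

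Cortical interneurons release gamma-aminobutyric acid (GABA), which inhibits the cells they contact. They arise from the ganglionic eminences of the embryo, where Dlx and Lhx transcription factors set their fate, and in the adult cortex they fall into classes marked by parvalbumin, somatostatin, vasoactive intestinal peptide, calretinin or reelin. In bulk tissue, fewer cells of a type and less RNA per cell cannot be told apart.

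The libraries held between 4907255 and 12771309 counts, with a median of 8168801, and the library numbers parted them by depth without overlap. The 16 libraries numbered 31 and below were the shallower ones and the 11 numbered 32 and above the deeper ones. Library 3 stood apart in the interneuron genes, since it was the lowest of all in 5 of the 9 (Gad2, Slc32a1, Lhx6, Dlx1 and Reln) and the highest in Pvalb. It also had the highest summed level of 8 oligodendrocyte markers (63504 normalized counts, next library 43353) and the lowest of the glutamatergic neuron markers (10711, next library 11897). Library 51 was the highest in Gad1, Slc32a1, Calb2 and Dlx1 and the lowest in Pvalb. Libraries 12 and 20 had the most 18S ribosomal RNA (Rn18s at 19987 and 16900 normalized counts, against a median of 1621 over all libraries).

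Glutamatergic cortical identity was present in every library. Of 8 such markers 7 had a mean count of at least 10, with a summed level of 10711 to 18336 normalized counts, and Emx1 was listed at 0. The 9 markers of striatal projection neurons, GABAergic cells that also use Gad1, Gad2 and Slc32a1, all had a mean count of at least 10, with a summed level of 2515 to 3584 and a median of 2998. How much such cells add to the counts of the GABA genes was not measured. The main marker of another large interneuron class, Sst (somatostatin), was listed at 0 in every library, as were Dlx6 and Ndnf. An exact 0 for genes known in cortex may come from how the reads were counted or annotated, and it is not read here as a lack of expression.

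Sequence upstream of the gene start is shown for Gad2 and for the pair of genes that followed it across libraries, Erbb4 and Reln, together with Slc32a1, whose product acts beside that of Gad2 but whose level did not follow it. The sequences are RefSeq's for assembly GRCr8, 5′ to 3′ on the gene's strand, and stop at the annotated gene start. They lie at chr17:89671468-89671717 (plus strand) for Gad2, chr9:78045634-78045856 (minus strand) for Erbb4, chr4:13628318-13628439 (plus strand) for Reln and chr3:167686995-167687244 (plus strand) for Slc32a1. Capitals mark a CCAAT box, a GC box (GGGCGG) or the reverse complement of either.
Gad2: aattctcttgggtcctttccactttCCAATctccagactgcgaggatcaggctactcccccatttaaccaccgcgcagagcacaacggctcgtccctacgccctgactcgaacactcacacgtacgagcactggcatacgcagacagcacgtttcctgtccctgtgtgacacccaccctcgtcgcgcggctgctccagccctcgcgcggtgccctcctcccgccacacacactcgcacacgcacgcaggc
Erbb4: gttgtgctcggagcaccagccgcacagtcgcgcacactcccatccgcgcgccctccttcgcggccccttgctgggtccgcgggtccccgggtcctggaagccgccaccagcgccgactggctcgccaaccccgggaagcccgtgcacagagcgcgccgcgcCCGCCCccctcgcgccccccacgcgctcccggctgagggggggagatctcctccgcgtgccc
Reln: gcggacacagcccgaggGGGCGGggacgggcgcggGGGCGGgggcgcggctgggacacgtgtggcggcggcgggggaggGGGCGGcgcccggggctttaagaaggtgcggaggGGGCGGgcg
Slc32a1: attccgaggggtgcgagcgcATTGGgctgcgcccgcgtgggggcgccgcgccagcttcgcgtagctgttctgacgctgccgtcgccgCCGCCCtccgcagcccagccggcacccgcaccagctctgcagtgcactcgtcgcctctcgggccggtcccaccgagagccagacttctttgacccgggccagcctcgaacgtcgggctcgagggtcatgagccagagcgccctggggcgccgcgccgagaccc

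RefSeq promoter windows of 300 bases were matched by gene ID for 8 of the 9 genes, all but Calb2, and searched on both strands for the TATA box (TATAAA), the CCAAT box (CCAAT), the GC box (GGGCGG), a homeodomain core (TAATTA) and the cAMP response element (TGACGTCA), which share no overlapping match here. In 5 of the 8 genes the window's own start lies inside the annotated gene, so that fewer than 250 of its bases come before the annotated gene start, and none do for Pvalb and Lhx6. The GC box was found in 7 of the 8 windows, all but that of Gad2, and in 33.1% of all 33469 windows of that length. Reln held 4 copies of it. The CCAAT box was found in Gad2 and Slc32a1 and in 37.5% of all windows, and the TATA box only in Gad1 and in 14.2% of all windows. Neither the homeodomain core (5.36% of all windows) nor the cAMP response element (1.83%) was found in any of the 8. The windows of the 8 genes held 60.7% to 79.0% G and C, with Reln highest, against a median of 51.7% over all windows. The matches are a description of letters and were not tested against the expression values.

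The enzymes that make GABA had unequal spreads between rats, narrow for Gad1 and wide for Gad2. Levels are given as counts divided by DESeq2 size factors and are not per gene length, so they are compared between libraries and not between genes. Gad1, which encodes the glutamate decarboxylase that makes most of the basal GABA, ran from 2332 normalized counts in library 24 over a median of 2639 to 3303 in library 51, with a mean of 2683 ± 216 (SD, n = 27). Its highest library was 1.42-fold above its lowest, and the SD of its log2 values, 0.11, was above that of only 14% of the 11730 genes tested. Gad2, which encodes the isoform enriched at nerve terminals, ran from 96.3 in library 3 over a median of 339 to 487 in library 13, with a mean of 339 ± 94.0 (SD, n = 27). That is a 5.06-fold range, and it remained 2.66-fold without library 3. The SD of log2 Gad2 was 0.50 and above that of 92.2% of genes, and it was 0.37 in the other 26 libraries.

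The ratio of Gad2 to Gad1 varied between rats. Gad2 counts were 4.11% of Gad1 counts in library 3, 12.9% in the median library and 17.5% in library 6, a 4.25-fold range. Without library 3 the lowest ratio was 6.66%, in library 19, and the range 2.63-fold. Slc32a1, which encodes the vesicular transporter that loads GABA into synaptic vesicles, was 25.9% of Gad1 at the lowest, 32.6% at the median and 38.9% at the highest, a 1.50-fold range. Slc32a1 itself ran from 668 in library 3 over a median of 893 to 1284 in library 51, with a mean of 879 ± 112 (SD, n = 27). Library 51 lay far above the next library, at 971, and the SD of its log2 values (0.17) lay near the middle of all genes.

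The calcium-binding proteins mark separate interneuron classes, fast-spiking basket and chandelier cells for parvalbumin and mostly interneuron-selective cells for calretinin. Pvalb ran from 327 in library 51 over a median of 432 to 720 in library 3, with a mean of 437 ± 80.6 (SD, n = 27). Library 3 was the exception at the top, since the next highest library reached 523, and without it the range shrank from 2.20-fold to 1.60-fold. Calb2, the calretinin gene, ran from 119 in library 43 over a median of 150 to 249 in library 51, with a mean of 159 ± 29.1 (SD, n = 27). The SD of the log2 values was 0.25 for Pvalb and 0.24 for Calb2, both above the median of all genes, which was 0.19.

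The transcription factors had a spread below the median of all genes. Lhx6, which specifies interneurons of the medial ganglionic eminence and stays on in parvalbumin and somatostatin cells, ran from 147 in library 3 over a median of 215 to 250 in library 47, with a mean of 212 ± 24.8 (SD, n = 27). Dlx1, which acts in the migration and survival of interneurons, ran from 289 in library 3 over a median of 373 to 441 in library 51, with a mean of 374 ± 36 (SD, n = 27). Their log2 SDs were 0.18 and 0.14. Of the variance of Lhx6 35.3%, and of that of Dlx1 29.6%, was counting noise, the largest shares in the set, so the depth limits what these genes can show.

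The signaling genes differed most in their spread. Erbb4, the neuregulin receptor of interneurons, was counted only 2 to 41 times per library and ran from 2.19 normalized counts in library 24 over a median of 13.5 to 44.2 in library 12, a 20.2-fold range with a mean of 16.5 ± 11.6 (SD, n = 27). Libraries 12, 13 and 20 reached 44.2, 43.4 and 41.2 and all others stayed at 27.3 or below. The SD of log2 Erbb4, 0.97, was above that of 98.9% of genes, with 12.6% of its variance from counting noise. Reln, which encodes the secreted glycoprotein reelin, ran from 746 in library 3 over a median of 1182 to 1538 in library 12, with a mean of 1160 ± 147 (SD, n = 27). Its log2 SD, 0.19, lay near the median of all genes.

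All 9 genes varied by more than counting alone allows (chi-square test of dispersion, largest adjusted p = 2.4e-05, for Lhx6). This does not set them apart, because 89.8% of the genes tested passed the same test.

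**Figure D1:**
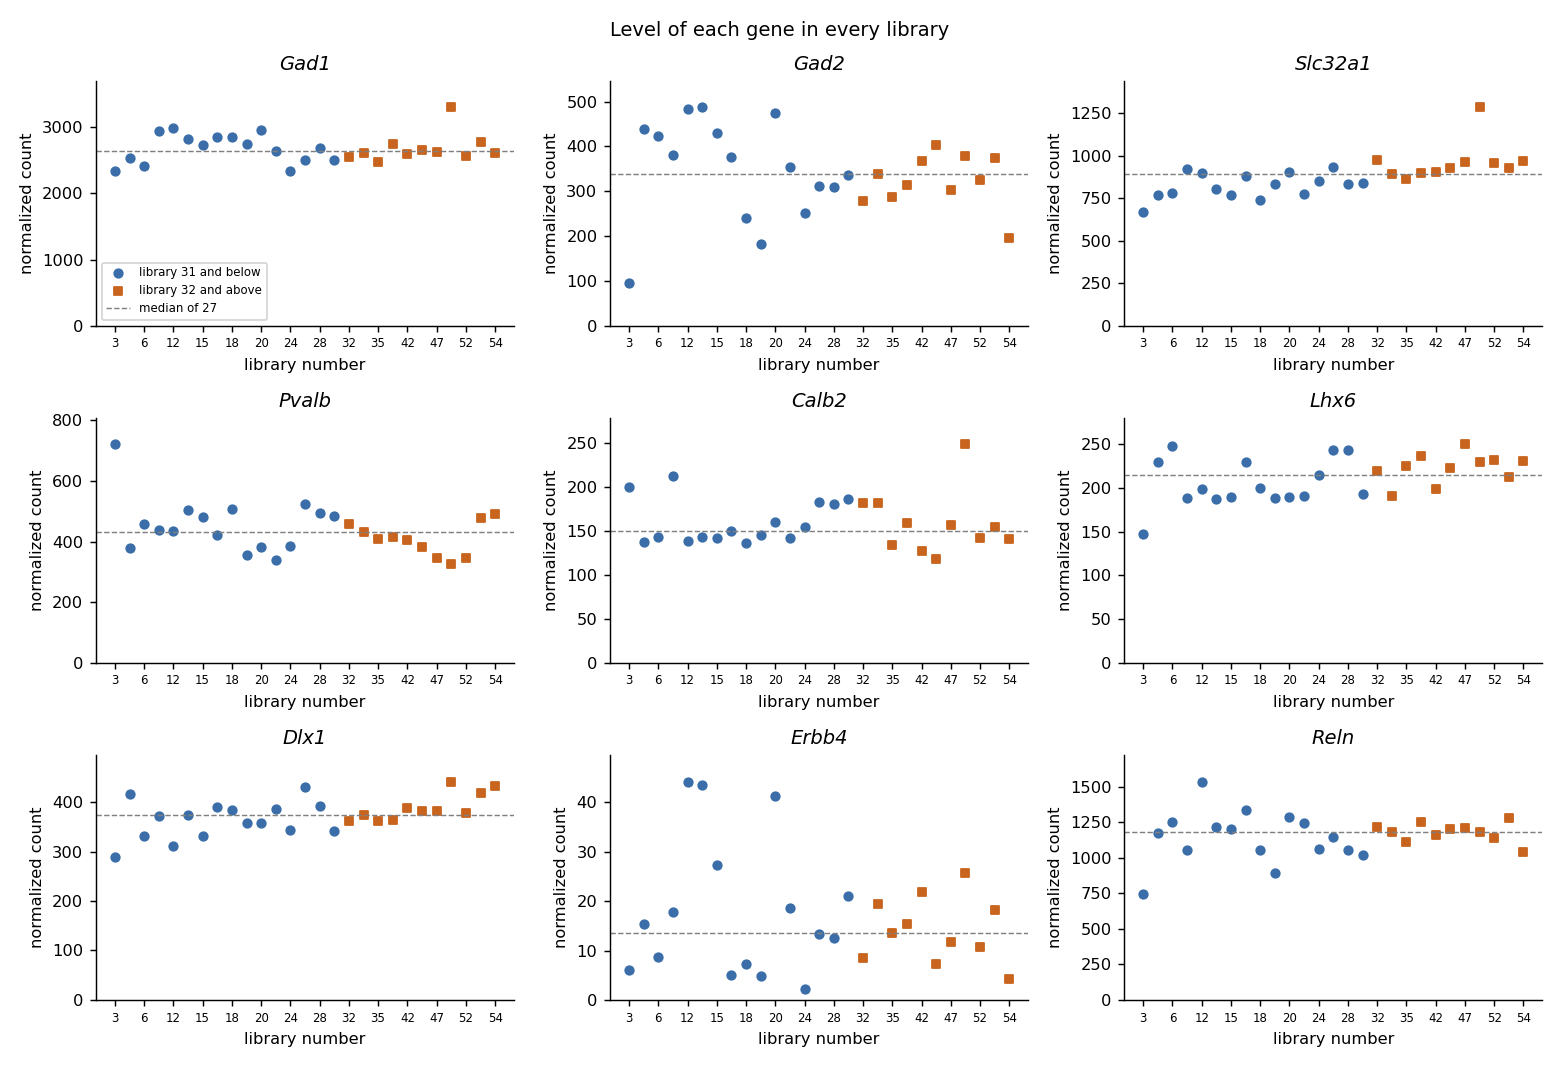
Normalized count (y axes, from 0) of each of the 9 genes in each library (x axes, library number), with circles for the 16 libraries numbered 31 and below, squares for the 11 numbered 32 and above, and the median of 27 as a dashed line. Library 3 is lowest in 5 panels and highest for Pvalb, libraries 12, 13 and 20 lead for Erbb4, and the squares for Slc32a1 lie mostly above the circles.

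**Figure D2:**
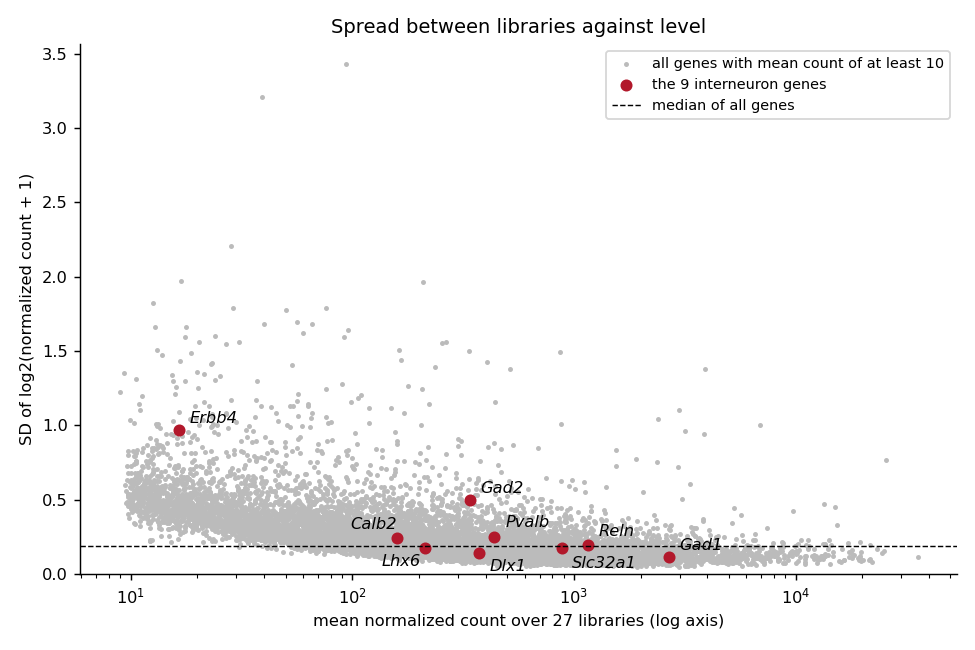
SD of log2(normalized count + 1) over 27 libraries (y axis) against mean normalized count (log x axis) for 11730 genes in grey and the 9 interneuron genes in red, with the median SD of all genes (0.19) as a dashed line. Erbb4 (0.97) and Gad2 (0.50) stand well above the line and Gad1 (0.11) below it.

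Whether the interneuron genes rose and fell as a unit was asked by correlating them across the 27 libraries. Of the 36 pairs, 18 had a positive and 18 a negative Spearman's rho, with a median of 0.004 and a range from -0.338 (Lhx6 and Erbb4) to 0.694 (Gad2 and Erbb4). P-values came from 100000 permutations of the libraries, two-sided, and were adjusted by the Benjamini-Hochberg method over the 11729 genes set against each gene. For a pair the larger of its adjusted values is given. In all, 9 pairs had an unadjusted p under 0.05 and 2 had an adjusted p under 0.05, both with Gad2. At that threshold 21.6% of all genes correlated with Gad2 in either direction, 12.9% positively, so the count of 2 among the 8 other interneuron genes is near this background.

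Gad2 and Erbb4 had a rho of 0.694 (permutation p = 0.00014, adjusted p = 0.0039) and a Pearson's r of 0.661 (permutation p = 0.00012, adjusted p = 0.0052), which was 0.715 without libraries 3 and 19, the farthest from the median of Gad2. Within the shallower libraries rho was 0.788 and within the deeper ones 0.500, where 11 libraries gave a permutation p of 0.12. Libraries 12, 13 and 20, with the highest Gad2 levels (484, 487 and 475), were also the highest in Erbb4. Libraries 12 and 20 also had the most Rn18s. Erbb4 had an r of 0.460 with Rn18s (permutation p = 0.016, adjusted p = 0.31), or -0.072 without these 2 libraries. Without libraries 12 and 20 the rho of Gad2 and Erbb4 was 0.615 (adjusted permutation p = 0.047). Without 12, 13 and 20 it was 0.564 (adjusted permutation p = 0.13), which no longer passed.

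Gad2 and Reln had a rho of 0.628 (permutation p = 0.00074, adjusted p = 0.011). On the linear measure the pair had an r of 0.843 (permutation p = 1e-05, adjusted p = 0.00018, at the floor set by 100000 permutations, the smallest p they can give), and of 0.627 without libraries 3 and 19, which were the lowest in both genes. The value of rho was 0.747 in the shallower libraries and 0.291 in the deeper ones, where the permutation p was 0.39. It was 0.583 without library 3 (adjusted permutation p = 0.041) and 0.548 without libraries 12 and 20 (adjusted permutation p = 0.063). Erbb4 and Reln, which both followed Gad2, had a rho of 0.411 with each other (permutation p = 0.034, adjusted p = 0.17).

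The other pairs did not pass the test. Gad1 and Gad2, which catalyse the same reaction, had a rho of 0.432 (permutation p = 0.026, adjusted p = 0.24), and Gad1 and Slc32a1 had one of 0.158 (adjusted permutation p = 0.71). Gad2 and Slc32a1 had a rho of -0.026 (adjusted permutation p = 0.96). Pvalb and Lhx6, expressed in the same class of interneuron, had a rho of -0.134 (adjusted permutation p = 0.81), and Lhx6 and Dlx1 one of 0.424 (adjusted permutation p = 0.31). Pvalb had a negative rho with 7 of the 8 other genes, all but Calb2, and none of these passed.

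**Figure D3:**
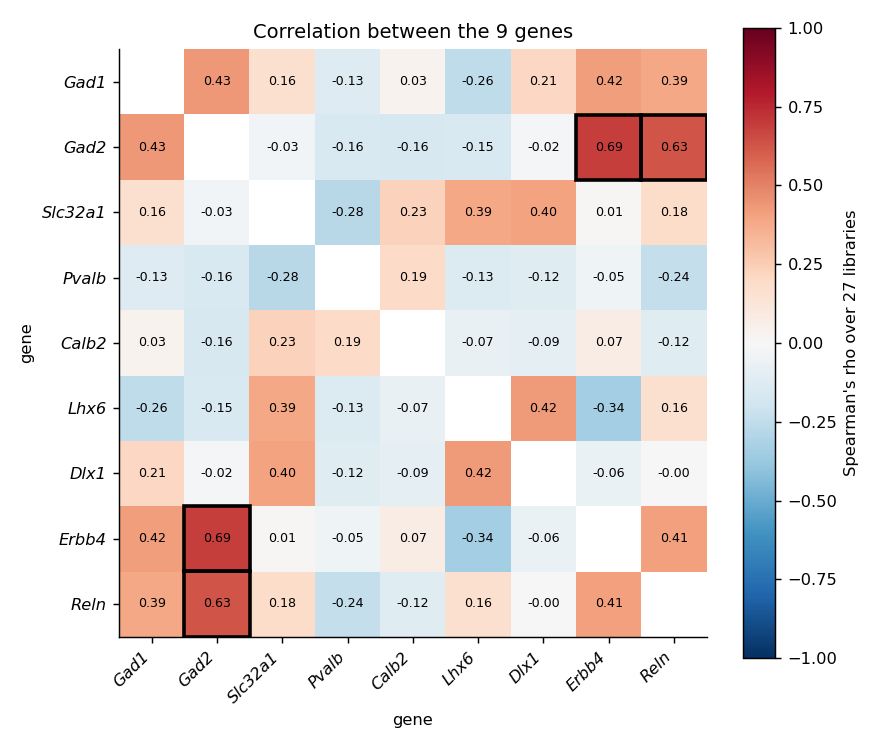
Spearman's rho over 27 libraries for each pair of the 9 genes (both axes), from blue (-1) over white (0) to red (1), with the value in each cell and black frames around the pairs whose adjusted p was under 0.05. The framed cells are Gad2 with Erbb4 (0.69) and Gad2 with Reln (0.63).

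**Figure D4:**
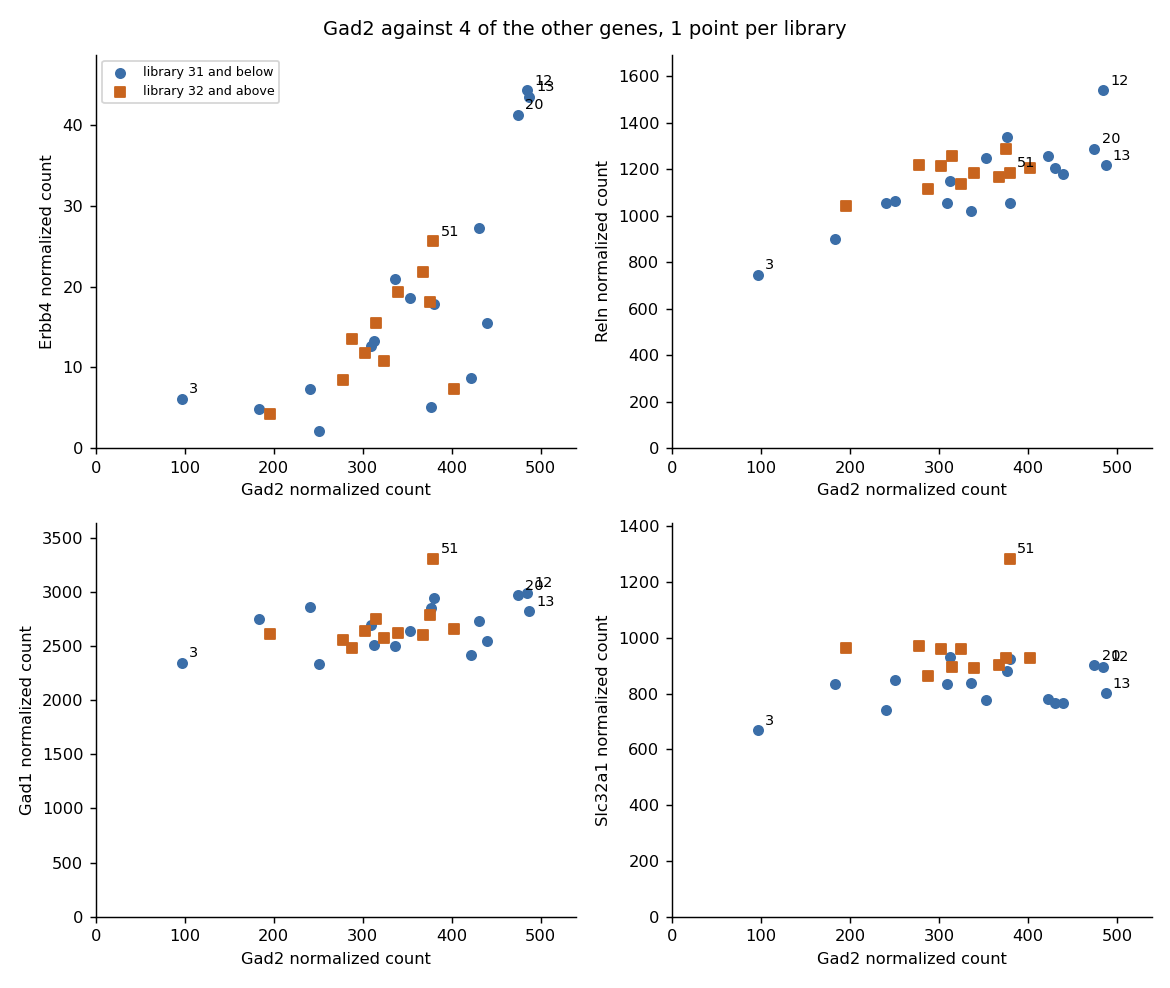
Normalized count of Gad2 (x axes) against that of Erbb4, Reln, Gad1 and Slc32a1 (y axes), 1 point per library, circles for libraries 31 and below and squares for 32 and above, with libraries 3, 12, 13, 20 and 51 numbered. Erbb4 and Reln rise with Gad2, with libraries 12, 13 and 20 at the upper right for Erbb4 and library 3 at the lower left for Reln.

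The number of genes in the whole table that followed each member was counted in the same way. Gad2 correlated with 2532 of 11729 genes, Reln with 1732 (14.8%), Slc32a1 with 1136 (9.69%) and Erbb4 with 834 (7.11%). Gad1 correlated with 10 (0.0853%), Pvalb with 7 (0.0597%) and Lhx6 with 3 (0.0256%). Calb2 and Dlx1 correlated with 0 genes at an adjusted permutation p under 0.05, and with 604 and 1634 at an unadjusted p under 0.05. For Gad2, Reln, Slc32a1 and Erbb4 a correlation with any 1 gene is thus set against a wide background. These counts, and the rho values in the next paragraph, span the shallower and deeper libraries, between which Slc32a1 differed.

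The genes most like each member, taken as the 3 highest Spearman's rho among genes averaging at least 50 normalized counts over 27 libraries, were as follows. Gad2 was closest to Ppm1e (rho = 0.927), a protein phosphatase, Dnm3 (0.910), a dynamin, and Napb (0.904), a vesicle fusion factor, and Erbb4 to Apc (0.910), Cacna1e (0.904), a calcium channel subunit, and Ptprt (0.901). Reln was closest to Mapre2 (0.840), Cadm3 (0.833) and Atrn (0.818), and Slc32a1 to Ncdn (0.856), Ccdc92 (0.846) and Tmem158 (0.834). Each of these 12 had the smallest permutation p possible, 1e-05. Gad1 was closest to Gnpnat1 (0.790), Pvalb to Stmn1 (0.789), Lhx6 to Radil (0.780), Dlx1 to Mars1 (0.791, adjusted permutation p = 0.12) and Calb2 to Pard6a (0.626, adjusted permutation p = 0.92). None of the genes named here was a member of the set.

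The partners of the signaling genes could be set beside them. The reelin receptor gene Vldlr (299 ± 41.0 normalized counts, SD, n = 27) correlated with Reln at a rho of 0.544 (r = 0.489, adjusted permutation p of rho = 0.035), with Gad2 at 0.727 (adjusted permutation p = 0.0012) and with Erbb4 at 0.606 (adjusted permutation p = 0.021). Without library 3 the value with Reln was 0.515 (adjusted permutation p = 0.078) and no longer passed. Dab1, the adaptor that carries the reelin signal in the receiving cell, passed with Gad2 (rho = 0.520, adjusted permutation p = 0.033; 0.463 and 0.082 without library 3), and the receptor gene Lrp8 was listed at 0. Nrg1, a ligand of Erbb4, correlated with Erbb4 at a rho of 0.687 (adjusted permutation p = 0.0037) and with Gad2 at 0.676 (adjusted permutation p = 0.0022). Nrg1 averaged 45.4 normalized counts, with 46.7% of its variance from counting noise. It was highest in library 12 and lowest in library 24, as was Erbb4, and no rho without libraries 12, 13 and 20 is given for it. Of the other partners of Erbb4, Nrg2, Erbb2 and Erbb3 did not pass with it and Nrg3 was listed at 0. At this threshold 21.6% of all genes passed with Gad2, 14.8% with Reln and 7.11% with Erbb4. The passes of these partners are therefore not read as particular to them.

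Other genes of GABA handling were set beside the enzymes. Of 6 transport and breakdown genes, 3 passed with Gad2, among them the GABA transporter Slc6a11 (rho = 0.635) and the breakdown enzyme Aldh5a1 (0.720). With Slc32a1 1 passed (Slc12a5, the neuronal chloride exporter, 0.637). Slc12a5 averaged 7092 normalized counts in the shallower and 7823 in the deeper libraries, where Slc32a1 was also higher. No rho of this pair within the shallower or deeper libraries is given. With Gad1 0 of 6 passed in this permutation test, and 1 had an unadjusted p under 0.05. The difference between Gad1 and Gad2 in these counts was not tested, and 21.6% of all genes passed with Gad2, 9.69% with Slc32a1 and 0.0853% with Gad1.

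Of 13 further genes on the list of interneuron transcription factors, 3 rose and 1 fell with Gad2, where 21.6% of all genes passed in either direction. Sox6, Prox1 and the fate marker Adarb2, an RNA-binding protein kept on this list, were those that rose (rho = 0.712, 0.514 and 0.687). The same 3 rose with Erbb4 (0.800, 0.571 and 0.690), where 7.11% of all genes passed. They averaged only 18.7, 17.8 and 27.8 normalized counts, with 38.0%, 58.4% and 35.1% of their variance from counting noise. Sox6 was highest in library 12, Prox1 in library 5 and Adarb2 in library 13, and no rho without libraries 12, 13 and 20 is given. With Slc32a1 2 rose, among them Dlx2 (0.651), where 9.69% of all genes passed. Dlx2 averaged 26.7 normalized counts, with 60.1% of its variance from counting noise. Like Slc32a1, Dlx2 was higher in the deeper libraries (mean 32.2 against 22.9), and no rho within the shallower or deeper libraries is given. Maf, the only 1 of the 13 to pass with Reln, fell (-0.592), and 14.8% of all genes passed with Reln. These counts are not read as particular to the list. With Dlx1 and with Lhx6 0 of 13 passed, against 4 and 1 at an unadjusted permutation p under 0.05, as for 1634 and 2126 of 11729 genes. Of 17 subtype genes, Cnr1 (0.571) and Kit (0.566) rose with Gad2 and Cck fell (-0.674). With Reln 2 of the 17 rose and 1 fell, and with Slc32a1 1 rose and 1 fell. Each of these passed an adjusted permutation p under 0.05, and Prox1 with Gad2 and with Erbb4 and Maf with Reln did not without library 3 (adjusted permutation p = 0.088, 0.077 and 0.058).

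For Pvalb, 0 of 5 fast-spiking genes passed (Kcnc1, Kcnc2, Syt2, Cplx1 and Nefh), and 3 had an unadjusted permutation p under 0.05, as had 1563 of all 11729 genes, of which 7 passed. The median rho of these 5 genes was 0.38, the highest median of any list with Pvalb, but the list medians were not tested. Cox6a2, also on this list, had a mean count of 6.81 and was left out.

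The depth of the libraries coincided with 1 of the 9 genes. Slc32a1 was 959 ± 113 (SD, n = 11) in the deeper libraries and 825 ± 72.9 (SD, n = 16) in the shallower ones, a log2 difference of 0.22 (SE 0.05, adjusted p = 0.0044, edgeR quasi-likelihood test). It held without library 3 (0.21, adjusted p = 0.0044), and the highest library of the shallower block (933) lay within the range of the deeper one (864 to 1284). Of 11716 genes tested, 18% differed between the blocks in either direction and 8.85% were higher in the deeper libraries. The count of 1 in 9 is near the background and is not read as particular to these genes. The other 8 had adjusted p values from 0.20 (Dlx1) to 0.98 (Calb2). The numbering, the depth and anything else that changed between these libraries cannot be told apart.

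Measures of the libraries themselves moved with Slc32a1 and Pvalb. Slc32a1 had a rho of 0.600 with the total count (permutation p = 0.00125, adjusted p = 0.013) and an r of 0.564 (permutation p = 0.0016), or 0.550 without libraries 32 and 43, but its rho was 0.050 within the shallower and 0.045 within the deeper libraries. Pvalb had a rho of -0.534 with the number of genes detected (permutation p = 0.0047, adjusted p = 0.032) and an r of -0.567 (permutation p = 0.0018), or -0.446 without libraries 3 and 6, and rho stayed negative within the shallower (-0.565) and the deeper libraries (-0.473). Over all genes tested 18.1% followed the number of genes detected by rho and 20.7% by r, and 16.5% followed the total count by rho and 17.4% by r. For each gene 4 such measures were tried, 36 relations in all, and Slc32a1 also followed the genes detected (rho = 0.650 with permutation p = 0.00031 and adjusted p = 0.0053, and r = 0.634 with permutation p = 0.00019, or 0.527 without libraries 3 and 6), with a rho of 0.182 and 0.418 within the blocks. The other measures were the share of counts in the 20 most abundant genes, followed by 3.9% of all genes by rho, and the level of Rn18s, followed by 0.222% by rho and 0.0341% by r. By rho, Gad2, Erbb4 and Reln followed none of the 4 at an adjusted permutation p under 0.05. By r, the share in the 20 most abundant genes passed for 5 of the 9 genes and for 24% of all genes. It passed for Gad2 (-0.544, permutation p = 0.0045, adjusted p = 0.025) and Reln (-0.527, permutation p = 0.0058, adjusted p = 0.030), but r was -0.098 and -0.079 without libraries 3 and 19. The r of Slc32a1 (-0.501, permutation p = 0.0094, adjusted p = 0.042) and Lhx6 (-0.534, permutation p = 0.0042, adjusted p = 0.024) with that share also passed and was -0.357 and -0.255 without both libraries, and that of Pvalb passed at 0.580 (permutation p = 0.0017, adjusted p = 0.013) and was 0.618 without them.

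Markers of other cells were tested as a score per library, with edgeR, giving the log2 change of each gene per SD of the score. With the glutamatergic neuron score 5 of the 9 genes changed, while 29.3% of 12108 genes did (13.7% rising and 15.6% falling). Reln (0.16, SE 0.02, adjusted p = 6.4e-06), Gad2 (0.28, SE 0.08, adjusted p = 0.0067), Lhx6 (0.08, SE 0.03, adjusted p = 0.047) and Slc32a1 (0.08, SE 0.03, adjusted p = 0.042) rose with it, and Pvalb fell (-0.11, SE 0.04, adjusted p = 0.045). Library 3, at -3.33 SD the lowest on this score, decided most of these calls. Without it only Reln passed (0.11, SE 0.02, adjusted p = 0.0027), while Gad2 stood at 0.12 (adjusted p = 0.30) and Pvalb at 0.000783 (adjusted p = 0.996). The score was scaled anew over the kept libraries, so these values are not on the scale of those from all libraries. Pvalb also did not pass without libraries 12 and 20 (adjusted p = 0.062), without the filter on low counts (0.060) or in DESeq2 (0.051). With the depth block in the fit Gad2 and Reln passed.

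The striatal neuron score was followed by 0 of the 9 genes, 2 of them at an unadjusted p under 0.05, and by 0.116% of all genes. Slc32a1 came closest (0.11, SE 0.03, adjusted p = 0.074). It passed without library 3 (adjusted p = 0.031) and in DESeq2 (adjusted p = 0.019), where it was the only one of the 9. Without library 51, the highest on this score at 3.37 SD, it stood at 0.04 (SE 0.02, adjusted p = 0.69), per SD of the score scaled anew. With the depth block in the fit it stood at 0.07 (adjusted p = 0.71). Pvalb had the lowest value on this score (-0.12, SE 0.04, adjusted p = 0.20). With the oligodendrocyte score (1.64% of all genes), the meningeal fibroblast score (2.57%) and the immediate early gene score (0.134%) 0 of 9 passed in edgeR and 0 in DESeq2, with 1, 1 and 0 genes at an unadjusted p under 0.05.

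**Figure D5:**
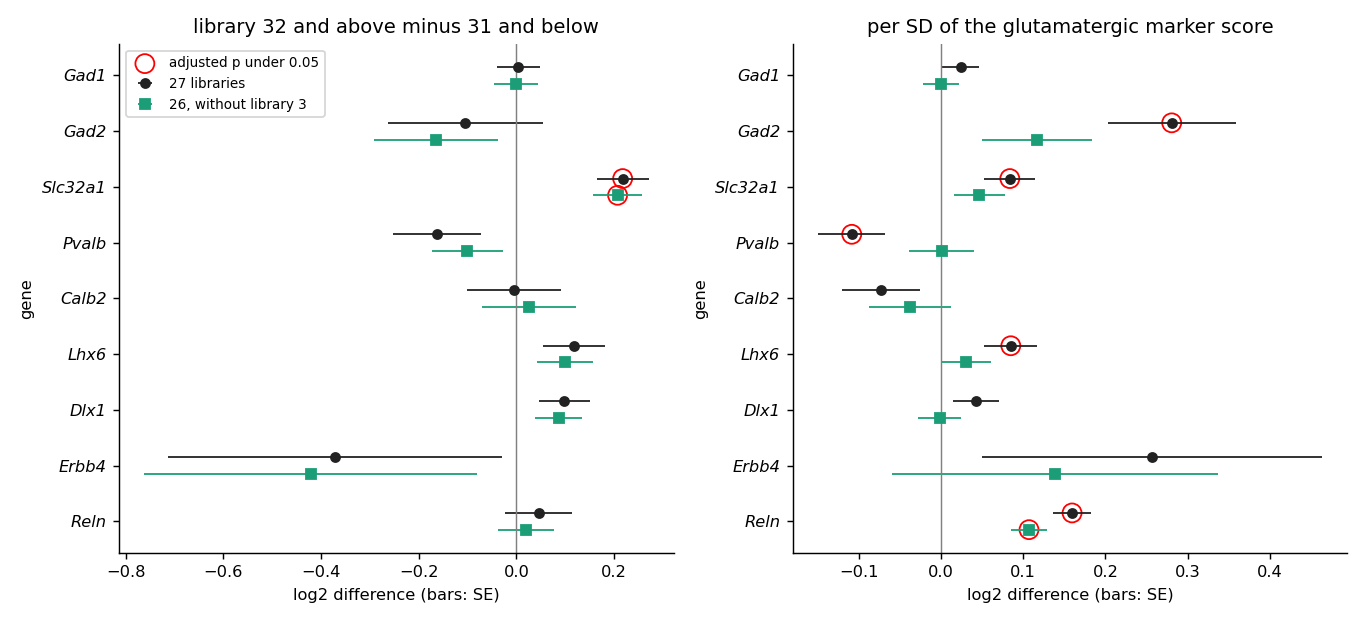
Log2 difference (x axes, bars are the SE) of each of the 9 genes between libraries 32 and above and 31 and below (left) and per SD of the glutamatergic marker score (right), from 27 libraries (black circles) and from 26 without library 3 (green squares), with red rings at an adjusted p under 0.05. Slc32a1 keeps its ring on the left without library 3, and on the right 5 rings fall to 1, that of Reln. On the right the score was scaled anew without library 3, so black and green points are per different SDs.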

How the data were processed

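Single-read sequencing of mPFC RNA from 27 rats was done on an Illumina NextSeq500, and the authors deposited raw counts, the whole number of reads per gene and library, without normalization. The labels name Trimmomatic, STAR and HTSeq as processing tools. Versions, genome build, annotation and strand setting are not given in the sources used here, and the labels and the study's methods name different library kits (TruSeq and NEBNext Ultra II). Whether reads of genes that overlap on opposite strands were told apart is therefore not known. Rows were named by NCBI gene ID from RefSeq (GRCr8), matching 28157 of 36865 rows, which held 99.7% of counts, and 436 rows that split 1 gene over several loci were left without a symbol. No column was left unused.

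Counts were divided by DESeq2 (1.42.0) size factors. Spread was tested by a chi-square dispersion test against Poisson counting, which assumes independent reads. Correlations used log2(normalized count + 1) and 100000 permutations, over genes counted at least 10 times on average. Comparisons used edgeR 4.0.16 (TMM, filterByExpr, glmQLFit and glmQLFTest) with Benjamini-Hochberg adjustment over all genes tested, threshold 0.05. A score is the mean z score of a marker list, scaled to an SD of 1. Where libraries were left out it was scaled anew over those kept, so changes per SD are then not on the same scale. Libraries are separate rats by their labels, and no replicate numbers pair them. Genes named are the 9 members, the genes of 14 lists and the 3 genes most like each member. The members and lists were chosen with earlier results of these data known. Some genes of the lists are not reported here. Scripts were tested on simulated data. The software was R 4.3.3 and Python 3.11.15 (scipy 1.17.1, numpy 2.4.6, matplotlib 3.10.9, pandas 2.3.3). Alternatives covered size factors, pseudocount, the count filter, DESeq2, the depth block and left-out libraries. Without molecular identifiers, counting noise covers counting error only.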

Additional observations from a re-analysis of the deposited data

How the results depend on the processing

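The mean levels of the 9 genes stayed within 1 SD under TMM factors and total counts. These factors had been scaled to the same geometric mean, so the means could hardly differ and this is no test of robustness. All 9 genes stayed beyond counting without the filter, with TMM factors and without libraries 12 and 20. The count of pairs that passed, 2 of 36, was 1 without libraries 12 and 20 and 0 both within the deeper libraries and without libraries 12, 13 and 20 (1 and 4 pairs at an unadjusted permutation p under 0.05), and it stayed at 2 under the 8 other alternatives. Between the depth blocks 1 gene passed in every alternative. Over the fits of all 9 genes 27 of 369 values under alternatives turned sign, 1 of them a gene that had passed, Pvalb on the glutamatergic score without library 3 (0.000783). Between the blocks they turned for Calb2 without the filter (0.000492) and without library 3 (0.025), for Gad1 without library 3 (-0.000673) and without library 51 (-0.023), none of which had passed. On the scores 2 turned without library 3 for the glutamatergic (Pvalb and Dlx1), 6 for the oligodendrocyte and 3 for the meningeal score, and 3 without library 51 for the striatal score (Gad1, Calb2 and Dlx1). The others lay on the immediate-early, oligodendrocyte and meningeal scores. For the glutamatergic score the count of 5 was 4 in DESeq2 and 4 without libraries 12 and 20, where Pvalb did not pass (adjusted p = 0.051 and 0.062), 3 without the filter, 2 with the depth block and 1 without library 3. For the striatal score the count of 0 was 1 in DESeq2 and 1 without library 3. The causes of these changes were not tested. Counts over all genes moved too, from 3552 to 1174 for the glutamatergic score without library 3, from 14 for the striatal score to 111 in DESeq2, 84 without library 3, 7 with the block and 0 without library 51, and from 197 to 448 for the oligodendrocyte score with the block. Leaving out libraries 3, 51 or 12, 13 and 20 was chosen after the data were seen. No paired analysis was possible because the 27 libraries form 1 group. Counting noise limits Lhx6 and Dlx1, and Erbb4 rests on few counts.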

Other observations

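Further interneuron genes gave values beside the 9. Vip, the peptide gene of a disinhibitory class, stood at 587 ± 93.5 normalized counts (SD, n = 27), Npy at 272 ± 70.6, Lamp5, a neurogliaform cell marker, at 1486 ± 206, and Calb1, the calbindin gene, at 1639 ± 168. Nos1, the neuronal nitric oxide synthase, ranged from 32.1 to 251, with a log2 SD (0.59) above that of 95.5% of genes. It rose with the glutamatergic score (0.34 per SD, SE 0.08, adjusted p = 0.0029, edgeR). Without library 3, where it was lowest, it stood at 0.16 (SE 0.07, adjusted p = 0.16), per SD of the score scaled anew. Of 17 subtype genes tested, 4 rose and 4 fell with this score, where 13.7% of all genes rose and 15.6% fell. Id2 was among those that fell (-0.30, adjusted p = 9.3e-06, edgeR). Dlx2, a homeodomain factor of migrating interneurons, was 0.48 higher on the log2 scale in the deeper libraries (SE 0.11, adjusted p = 0.0028, edgeR), while Id2 was lower (-0.56, SE 0.12, adjusted p = 0.0012). Of the 17 subtype genes 1 was higher and 1 lower there, where 18% of all genes differed in either direction. Of the 13 further transcription factors tested between the blocks, 3 were higher and 0 lower, where 8.85% of all genes were higher. Sp9, which is among them (0.46, SE 0.16, adjusted p = 0.046), did not pass without the filter on low counts (adjusted p = 0.053), without libraries 12 and 20 (0.085), without library 3 (0.055) or without library 51 (0.093). Dlx6, Sst, Ndnf, Nrg3, Lrp8, Emx1 and Eomes were listed at 0 in all 27 libraries, which may reflect the counting or annotation and is not read as a lack of expression. Of 4 Cajal-Retzius cell markers, early reelin-producing cells of layer 1, only Tp73 had a mean count of at least 10 (26.9 ± 8.30, SD, n = 27).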
